A study of Mus musculus with 4 samples.

Results

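Newly made collagen becomes a crosslinked fibre through a small set of enzymes and chaperones, and 10 genes of that set were followed in the infarcted left ventricle of mice with and without the histone demethylase KDM5B. The genes were the lysyl oxidases Lox, Loxl1, Loxl2 and Loxl3, the prolyl 4-hydroxylase subunits P4ha1, P4ha2 and P4ha3, the lysyl hydroxylases Plod1 and Plod2, and the collagen chaperone Serpinh1. They were found by the gene name that the scanner files give each probe, which selected 10 of 18680 named genes and 13 of 41174 non-control probes on the array. All 13 met the requirement for testing, which was that both arrays of 1 genotype or the other had a signal well above background, and 12 of them were well above background on all 4 arrays.

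The study asked which transcripts change when KDM5B is missing from a heart that has had a myocardial infarction (MI). Both groups were male C57BL/6 mice of 8 to 10 weeks per the labels and methods, and every heart was taken 7 days after the left anterior descending artery had been tied, so no uninjured heart entered the comparison. The KDM5B-knockout (KO) mice carried a CRISPR/Cas9 deletion in the part of Kdm5b that encodes the JmjC domain, with a frameshift, for which the methods name no driver that would confine it to a cell type, and the wild-type (WT) mice were littermates. Each genotype had 2 arrays, numbered 2 and 3 in the sample titles and here called WT 2, WT 3, KO 2 and KO 3. Nothing states how many mice each array stands for, so p-values measure only the spread between these samples. The labels call all 4 samples male, but the level of Xist, the RNA of the inactive X chromosome, was high on both number 2 arrays (4.36 in WT and 4.0 in KO) and not well above background on the number 3 arrays (-8.01 and -7.78), and Y-linked Ddx3y divided the arrays the opposite way. The 2 arrays of a genotype thus did not come from the same mouse. Because the arrays divided by number, results are also given within each array number, where there was 1 array per genotype and no replicate.

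Procollagen chains are modified before they fold. Prolyl 4-hydroxylases add hydroxyl groups to proline, which stabilise the triple helix, and lysyl hydroxylases add them to lysine, which sets the kind of crosslink that can form later. Serpinh1, also known as HSP47, holds the helix together on its way through the secretory pathway. After secretion and removal of the propeptides, lysyl oxidases oxidise lysine side chains of collagen and elastin so that neighbouring molecules bond covalently, and in an infarct this maturation turns a soft wound into a stiff scar. Fibroblasts and their activated form, the myofibroblasts, are the main source of fibrillar collagen in the injured heart.

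Each transcript was read by DNA probes of 60 bases. The probes of Loxl1, the dimmer of the pair for Loxl2, P4ha3 and Plod1 are shown because a reader can see from them which stretch of transcript the values below report on. Those of P4ha3 and Plod1 each span more genome than their own length, 6909 and 1421 bases, so they cross at least 1 intron and read spliced RNA. The sequences and their mm9 coordinates, with the probe in the sense of the transcript, are those of the array design.
Loxl1, chr9:58138570-58138629, minus strand: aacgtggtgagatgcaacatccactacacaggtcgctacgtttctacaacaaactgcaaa
Loxl2, chr14:70092141-70092200, plus strand: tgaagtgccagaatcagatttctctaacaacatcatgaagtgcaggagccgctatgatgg
P4ha3, chr7:107434225-107441133, plus strand: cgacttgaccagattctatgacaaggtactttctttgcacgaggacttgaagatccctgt
Plod1, chr4:147290037-147291457, minus strand: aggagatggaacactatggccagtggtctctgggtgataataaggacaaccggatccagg

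Promoters of the 3 prolyl 4-hydroxylase alpha subunits are shown because these paralogs differed widely in how much they varied between the arrays. RefSeq on GRCm38.p6 gave a promoter for 5 of the 10 genes, and the 250 bases before the transcription start were searched on both strands, overlaps included, for ACGTG and GCGTG, the letters of the core hypoxia response element. Capitals mark the matches, with CACGT and CACGC the same motifs on the opposite strand.
P4ha1, chr10:59323046-59323295, plus strand: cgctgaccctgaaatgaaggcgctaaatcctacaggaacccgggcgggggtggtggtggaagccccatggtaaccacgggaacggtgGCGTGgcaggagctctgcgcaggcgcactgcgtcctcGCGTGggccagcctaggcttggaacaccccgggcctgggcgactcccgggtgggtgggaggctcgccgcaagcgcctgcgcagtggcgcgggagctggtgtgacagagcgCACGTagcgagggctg
P4ha2, chr11:54100674-54100923, plus strand: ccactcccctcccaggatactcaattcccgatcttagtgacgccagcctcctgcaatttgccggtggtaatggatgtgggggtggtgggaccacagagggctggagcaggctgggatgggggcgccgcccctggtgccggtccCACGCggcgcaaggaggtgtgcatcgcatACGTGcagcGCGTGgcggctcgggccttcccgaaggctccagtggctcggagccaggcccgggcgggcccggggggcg
P4ha3, chr7:100285270-100285519, plus strand: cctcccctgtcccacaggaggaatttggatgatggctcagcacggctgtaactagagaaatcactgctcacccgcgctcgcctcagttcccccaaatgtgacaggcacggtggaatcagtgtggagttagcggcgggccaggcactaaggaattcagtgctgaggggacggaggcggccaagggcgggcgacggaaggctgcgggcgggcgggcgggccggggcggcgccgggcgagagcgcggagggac
P4ha1 and P4ha2 each held 1 ACGTG and 2 GCGTG, whereas P4ha3 held 0 of either. Serpinh1 held 1 ACGTG and Plod1 held 1 GCGTG. Of all 32851 promoters of the same length, 38.6% held at least 1 of the motifs, and of the 7977 that were at least as rich in G and C as the least rich of these 5 windows (61.6%), 64.9% did. A match describes the letters and no more.

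Levels are given as the log2 processed signal minus the 75th percentile of that array, so that a level of 0 is the brightness of the probe at the 75th percentile and 1 unit is a doubling. Differences are KO minus WT on the same log2 scale, and levels of different probes were not set against each other. Precision was limited by the number of arrays. For the targeted gene both probes put the KO arrays below the WT arrays, with differences of -0.996 (standard error 0.40) and -1.19 (standard error 0.45), and both kept a signal well above background on the KO arrays. Within number 2 these probes differed by -1.53 and -1.92, while within number 3 each differed by -0.46. Whether either probe lies in the deleted part was not determined.

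None of the 10 genes passed the test between genotypes, which with 2 arrays each does not show that the genotypes were alike. For 9 of the 10, all but P4ha2, the KO arrays differed from each other by more than the genotype means did. On KO 2 all 10 had their lowest level of the 4 arrays, as did 41.4% of all tested probes, and the count was 9 of the 10, without P4ha2, under normexp background correction and under a shift by the median. On KO 3 the level was the highest of the 4 for 7 of them. By the mean of each genotype 9 of the genes were lower in KO and Loxl2 was higher, with a median difference of -0.36 against 0.04 over the 14044 named genes tested, while 47.7% of all tested probes were lower. The median turned to 0.41 when KO 2 was left out, and then 1 of the 10 genes was lower in KO. By limma with Benjamini-Hochberg adjustment over all 28304 tested probes, 0 member probes and 0% of all probes passed an adjusted p of 0.05 with a fold change over 2. The lowest adjusted p of any probe was 0.9999. At an unadjusted p under 0.05 there were 410 probes, or 1.45%, and the methods' t-test gave 0 probes after Benjamini-Hochberg adjustment and, at an unadjusted p under 0.05 with a fold over 2, 88 probes with 0 of the 10 genes among them. The smallest two-sided p that an exact permutation test of 2 arrays against 2 allows is 0.333.

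**Figure D1:**
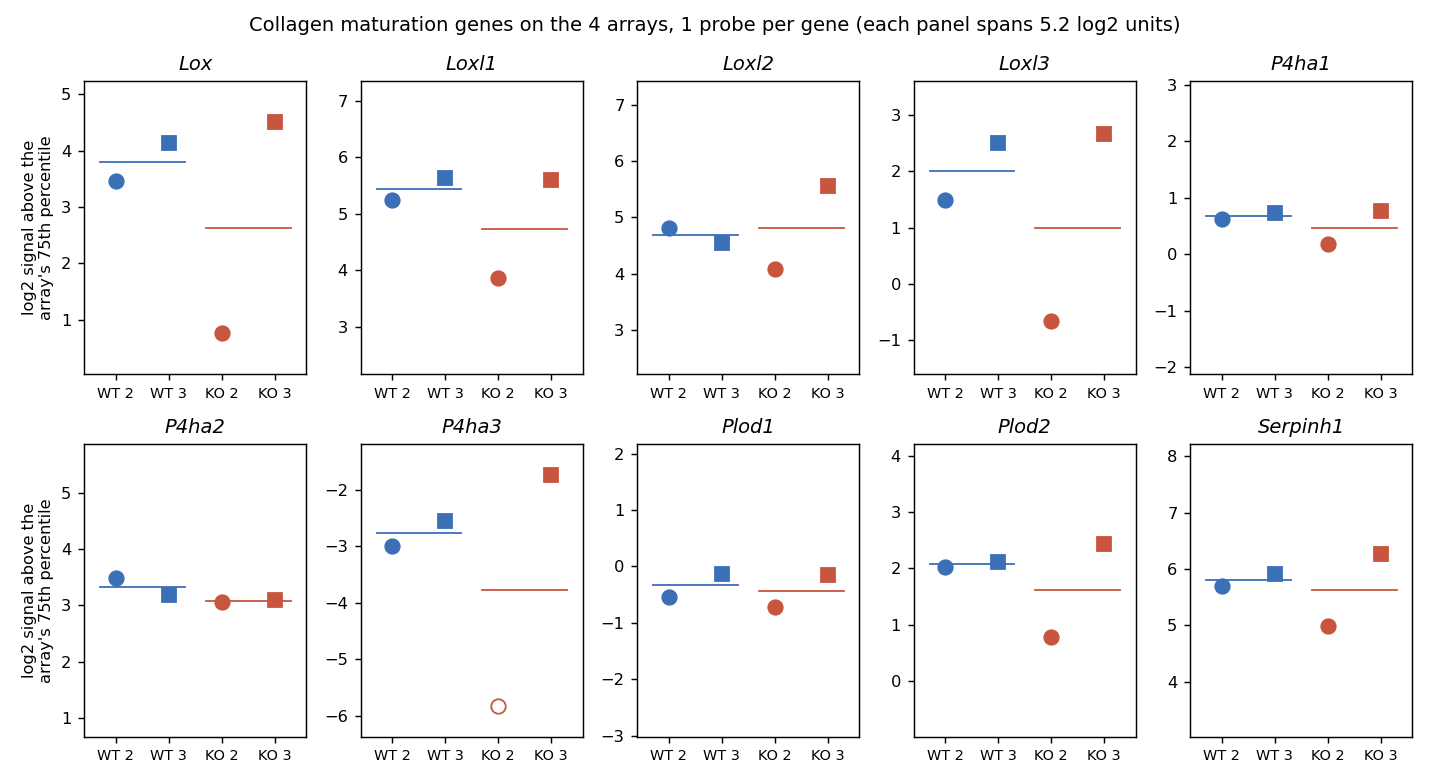
Level of each gene on the 4 arrays (y axis, log2 signal above the array's 75th percentile, 1 probe per gene), with WT in blue, KO in red, circles for number 2, squares for number 3 and a line at the mean of each genotype. KO 2 is the lowest point in all 10 panels, and the open circle of P4ha3 on KO 2 was not well above background.

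Lox, the founding lysyl oxidase, acts on both fibrillar collagen and elastin. Its level was 3.45 and 4.13 on the WT arrays, in the order 2 and 3, and 0.77 and 4.50 on the KO arrays. One KO array was thus far below both WT arrays and the other was above them, and the groups overlapped. WT averaged 3.79 ± 0.48 and KO 2.63 ± 2.64 (SD, n = 2 each), a difference of -1.16 with a 95% interval from -5.15 to 2.83. At number 2 Lox on KO was 0.156 times its WT value, and at number 3 it was 1.29 times. Without KO 2 the difference was 0.71.

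Loxl1, which is needed for the upkeep of elastic fibres, had levels of 5.25 (WT 2), 5.64 (WT 3), 3.87 (KO 2) and 5.60 (KO 3). KO 3 lay between the WT arrays and KO 2 lay below both. The difference of -0.71 had a standard error of 0.68, and it was -1.39 at number 2 and -0.04 at number 3.

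Loxl2, which crosslinks the type IV collagen of basement membranes, was the single gene of the 10 with a higher mean in KO by the brightest probe of each gene. Its brighter probe had levels of 4.81 and 4.55 in WT and 4.08 and 5.55 in KO, each in the order of the array numbers, with the KO arrays on either side of the WT arrays. The difference was 0.14 with a 95% interval from -1.52 to 1.79, and it turned to -0.02 under quantile normalization and in the authors' values. The dimmer probe, which lies upstream on the same strand and is shown above, had levels of 1.73 and 1.404 in WT and of 0.63 and 2.47 in KO. Its mean was lower in KO, with a difference of -0.019. Both probes gave the same order of the arrays, with a difference of -0.73 and -1.10 at number 2 and of 1.004 and 1.07 at number 3. At number 3 the brighter probe lay at the 2-fold mark, which 2.23% of all tested probes exceeded upward, and its difference was 0.98 under normexp, 0.998 under the median shift and 0.94 under quantile normalization and in the authors' values.

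Loxl3 is a close relative of Loxl2 that shares its scavenger receptor domains. Its level was 1.49 and 2.50 on the WT arrays, in the order 2 and 3, and -0.66 and 2.66 on the KO arrays. As with Lox, KO 2 was well below the other arrays and KO 3 was slightly above WT 3. The difference was -0.995 with a 95% interval from -4.66 to 2.67, and without KO 2 it was 0.67.

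The prolyl 4-hydroxylase alpha subunits carry the catalytic site and pair with the beta subunit P4hb. P4ha1, the main isoform in most tissues, had levels of 0.63 (WT 2), 0.74 (WT 3), 0.17 (KO 2) and 0.77 (KO 3) with its brighter probe. KO 3 was close to WT 3, at a difference of 0.03, and KO 2 lay below the other arrays. The difference was -0.21 with a 95% interval from -1.06 to 0.65, and the dimmer probe gave -0.25.

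P4ha2 had levels of 3.48 and 3.19 in WT and 3.06 and 3.09 in KO, each in the order of the array numbers. It was the single gene of the 10 with both KO arrays below both WT arrays, which held for 10.9% of all tested probes. The difference was -0.26 with a 95% interval from -0.91 to 0.39, and it stayed between -0.41 and -0.11 with any array left out. Its other, dimmer probe, which lies upstream, did not share the separation, with levels of -3.21, -3.74, -3.38 and -3.45 and a difference of 0.06.

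P4ha3 was the one gene with a signal that was not well above background, which was that on KO 2. Its level was -2.98 and -2.54 on the WT arrays, in the order 2 and 3, and -5.83 and -1.72 on the KO arrays. The KO 2 value is therefore uncertain, and KO 3 was above both WT arrays. With the KO 2 signal set to the lowest level of any probe well above background on that array, P4ha3 was 5.38-fold lower on KO 2 than on WT 2. Under normexp the log2 difference at number 2 was -0.79, so the size of that fold depends on the processing. At number 3 P4ha3 was 1.76 times its WT value. The difference was -1.01 with a 95% interval from -5.35 to 3.33, and without KO 2 it was 1.04. With the KO 2 signal set to that lowest level it was -0.80, and under normexp, which lifts dim signals, it was -0.034.

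Plod1 hydroxylates lysines within the collagen helix, and Plod2 those in the telopeptides at its ends, which favours the stable crosslinks of scar tissue. Plod1 had levels of -0.54 (WT 2), -0.13 (WT 3), -0.71 (KO 2) and -0.16 (KO 3), so that the genotypes lay closer to each other than the numbers did. The difference was -0.10 with a 95% interval from -1.02 to 0.82. Plod2 had levels of 2.03 and 2.12 in WT and 0.79 and 2.43 in KO, each in the order of the array numbers. Its WT arrays were nearly equal, KO 2 was below them and KO 3 was above them. The difference was -0.46 with a 95% interval from -2.27 to 1.34, and it was -1.24 at number 2 and 0.31 at number 3.

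Serpinh1, the chaperone, had levels of 5.70 and 5.92 on the WT arrays, in the order 2 and 3, and 4.98 and 6.26 on the KO arrays. The KO arrays again enclosed the WT arrays. The difference was -0.19 with a 95% interval from -1.66 to 1.28, and it was -0.72 at number 2 and 0.35 at number 3.

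The genes thus differed from each other mainly in their range over the 4 arrays, that is, the highest minus the lowest level. The range was 3.73 for Lox and 3.32 for Loxl3, larger than for 98.5% and 97.5% of the named genes tested. For P4ha3 it was 3.69 with the KO 2 signal at the lowest level well above background, and 1.77 under normexp, so P4ha3 and Lox have no order. It was 1.78 for Loxl1, 1.64 for Plod2, 1.47 for Loxl2 and 1.28 for Serpinh1. At the other end P4ha1, Plod1 and P4ha2 ranged over 0.60, 0.58 and 0.42, which was less than the median of 0.74 over all named genes tested. The median range of the 10 genes was 1.56. Within the alpha subunits the range of P4ha3 was therefore wider than that of P4ha1 and P4ha2, also under normexp, where theirs were 0.52 and 0.48. Their intervals for the genotype difference were the narrowest of the 10 genes together with that of Plod1.

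**Figure D2:**
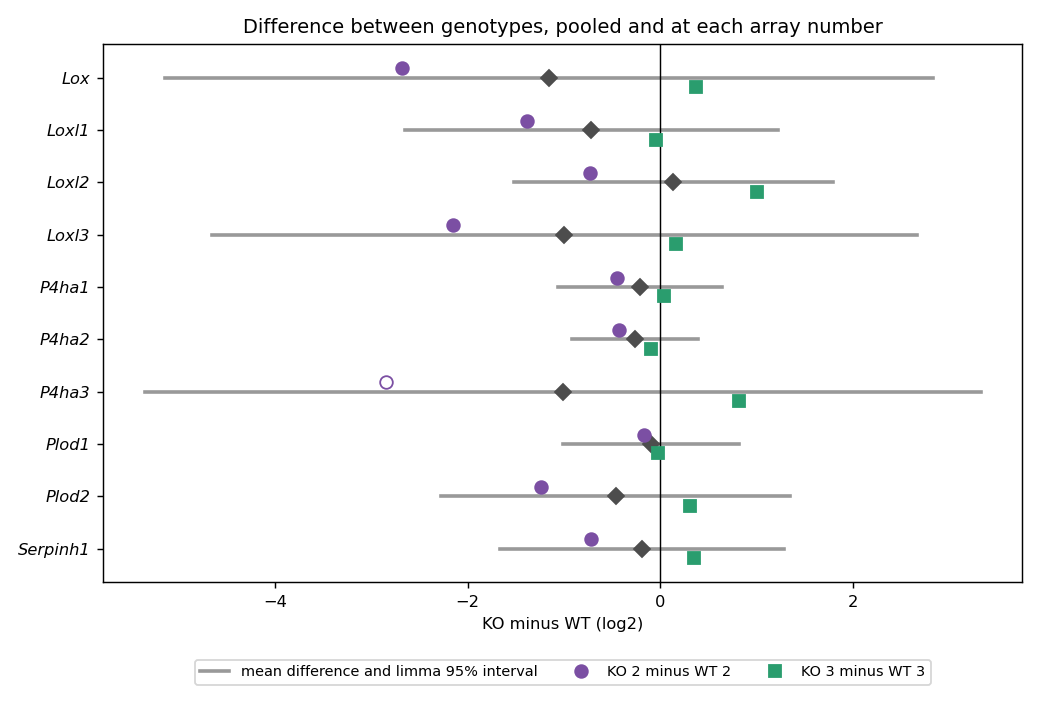
Difference between KO and WT (x axis, log2) for each gene, as the mean with its limma 95% interval in grey, at number 2 as purple circles and at number 3 as green squares. All purple points lie left of 0 and 7 of the 10 green points lie right of it, every interval spans 0, and the open circle of P4ha3 was measured against a KO 2 signal not well above background.

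Set side by side, the numbers gave opposite signs for most of the genes. At number 2 all 10 were lower on KO than on WT, where 48.9% of all tested probes were, with a median of -0.99. Lox, Loxl1, Loxl3, P4ha3 and Plod2 were more than 2-fold lower, against 8.84% of all tested probes, and P4ha3 was not under normexp, at -0.79. At number 3, 7 were higher on KO, where 52% of all tested probes were, with a median of 0.24, and 0 were more than 2-fold lower. The exceptions were Loxl1, P4ha2 and Plod1, at -0.04, -0.10 and -0.03. The 7 genes that were lower at number 2 and higher at number 3 compare with 27.2% of all tested probes, and the counts at both numbers were equal under normexp background correction, quantile normalization, a shift by the median and in the authors' values. Under normexp the genes were not all the same, with P4ha1 at -0.06 and Plod1 at 0.07 at number 3. With 1 array per genotype and number, the difference between these differences could not be tested.

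The array numbers were then compared with each other, with genotype as a term in the limma fit. Number 2 was below number 3 by a median of -0.81 over the 10 genes, and for 8 of them both number 2 arrays were below both number 3 arrays, where 32% of all tested probes were. The exceptions were Loxl2 and P4ha2, the latter with a difference of 0.13. The difference was -2.21 (standard error 0.85) for Lox, -2.17 (standard error 0.66) for Loxl3 and -1.06 (standard error 0.43) for Loxl1. For P4ha3, with its uncertain value on KO 2, it was -2.28, and -1.01 under normexp. No gene passed, and the lowest adjusted p by limma was 0.4178 among the 10 genes as over all probes, where 0% were called and 11.6% had an unadjusted p under 0.05. The step was present in WT alone for 8 of the 10 genes, where 51.2% of all tested probes were lower on number 2, and it was -0.68 for Lox and -1.010 for Loxl3 there. In KO it was present for all 10, where 53% of all tested probes were lower on number 2, at -3.73 for Lox and -3.32 for Loxl3. For P4ha2 the step in KO was only -0.03, and it turned to 0.029 under normexp and 0.007 under the median shift.

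The other genes of the pathway were counted in the same way. Of 33 further genes for crosslinking, hydroxylation, glycosylation, chaperoning, export and propeptide removal, 31 were tested and 0 passed, and Tll1 and Tll2 were not bright enough to test. Of the 31, 26 were lower and 5 were higher in KO, with a median of -0.17. At number 2, 24 were lower with a median of -0.50, and at number 3, 22 were higher with a median of 0.17. All 8 other hydroxylation genes, among them Plod3, P4hb and Crtap, were lower at number 2 and 7 of these were higher at number 3.

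Among the modifying enzymes, P3h1, a collagen prolyl 3-hydroxylase, had levels of -1.42 (WT 2), -1.03 (WT 3), -2.63 (KO 2) and -0.60 (KO 3). The differences of P3h3 at numbers 2 and 3 were -1.31 and 0.05, and those of the transglutaminase Tgm1 were -1.53 and 0.26. Bmp1, the protease that removes the C-propeptide of fibrillar collagen and also activates pro-Lox, had -1.34 and 0.08, and Creb3l1, a transcription factor for secretory and collagen genes, had -1.35 and 0.32. By the brightest probe of each, these 5 were more than 2-fold lower at number 2 and differed by at most 0.43 at number 3. The dimmer probe of Bmp1 had -0.99 and 0.57. Colgalt2, a collagen galactosyltransferase, did the opposite, with 0.40 at number 2 and -2.002 at number 3. Its other probe had 0.45 and -1.01. P3h2 and Ctage5, a factor for collagen export, were named outside the rule for named genes and chosen after their values were seen. P3h2 was below WT on both KO arrays, with a difference of -0.75. By its brightest probe Ctage5 was above WT on both, with 0.28, and a dimmer probe had 0.17 with the same separation. Another dimmer probe of Ctage5 was lower on KO at both numbers, with a difference of -0.06. Of the named genes tested, 8.83% were below WT on both KO arrays and 13.2% were above.

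The list of substrates showed the same split. It also held Fbln5, Fn1 and Postn, matrix proteins that are neither collagen nor elastin. All 11 genes of the list were tested, 0 passed and 11 were lower in KO on average, with a median of -0.52. At number 2 all 11 were lower with a median of -1.21, and at number 3, 8 were higher with a median of 0.17. Col1a1, which encodes the main chain of type I collagen, had levels of 7.50 and 7.27 in WT and 6.30 and 7.43 in KO, each in the order of the array numbers. Its partner Col1a2 had differences of -0.75 and 0.24 at numbers 2 and 3, and Col3a1 had -0.28 and 0.07. These are the brightest probes, and the dimmer ones gave larger differences at number 2, of -2.23 and -2.08 for Col1a1, -2.55 for Col1a2, and -1.40 and -2.63 for Col3a1. Fibronectin (Fn1) had -2.06 at number 2, Col5a2 -2.01, Col5a1 -1.68 and periostin (Postn) -1.27, and these 4 were 0.59, 0.45, 0.33 and 0.28 at number 3.

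Elastin (Eln), the substrate of Lox and Loxl1, departed from that split. Its level was 3.09 and 4.33 on the WT arrays, in the order 2 and 3, and 1.51 and 3.02 on the KO arrays. Both KO arrays were below both WT arrays, as for 10.9% of all tested probes, and the difference was -1.58 at number 2 and -1.31 at number 3. The mean difference of -1.45 had a standard error of 0.74 and did not pass the test. At number 3 the difference of Loxl1 was -0.04. Eln was not alone, as Col4a1 and Col4a2, named here outside the rule, were also lower on KO at both numbers. Their differences were small, at -0.06 and -0.09 for Col4a1 and at -0.03 and -0.13 for Col4a2.

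**Figure D3:**
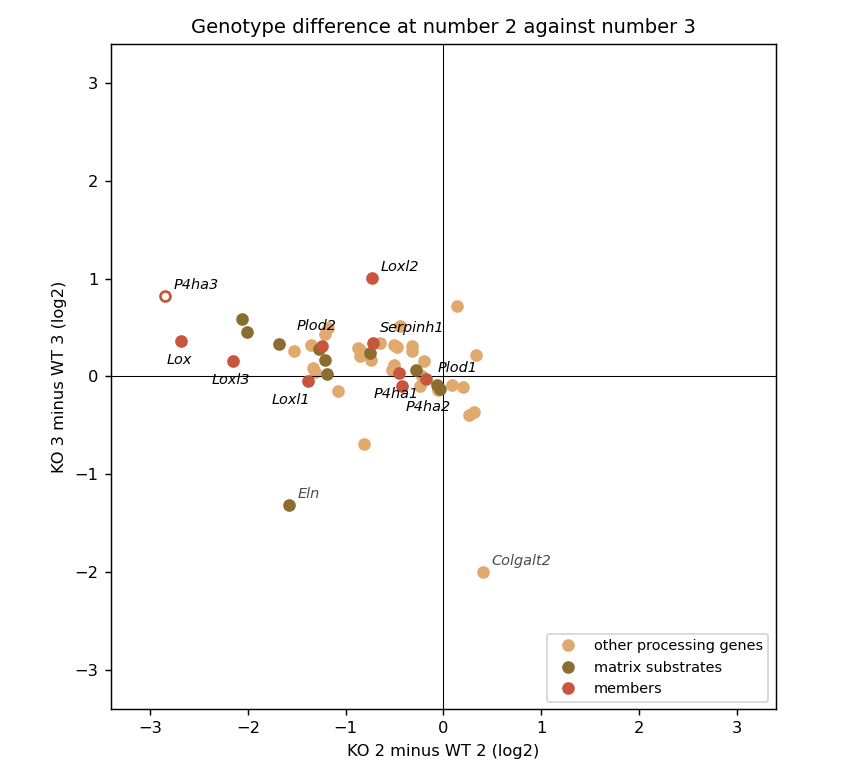
Difference between KO and WT at number 2 (x axis, log2) against that at number 3 (y axis, log2) for the 10 genes (red), the 31 other processing genes (tan) and the 11 genes of the substrate list (brown), 1 point per gene. Most points lie left of 0 and slightly above it, Eln is low on both axes, and the open point of P4ha3 is uncertain at number 2.

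Markers of the cells in the tissue moved with these values. In bulk RNA, fewer cells of a type and less RNA per cell cannot be told apart. All 12 cardiomyocyte markers were tested and well above background on all arrays. Each was higher on both number 2 arrays than on both number 3 arrays, as were 4452 of the 14044 named genes tested. The mean level of the 12 markers was 6.24 (WT 2), 5.15 (WT 3), 7.24 (KO 2) and 4.32 (KO 3), highest where the 10 genes were lowest and lowest where 7 of the 10 were highest. The 7 macrophage markers ran the other way, with 2.47, 2.99, 1.16 and 3.42 on the same arrays, and 7 of 7 were lower at number 2 and 6 of 7 higher at number 3. The 6 myofibroblast markers had mean levels of 3.61, 3.94, 2.07 and 4.41, and 6 of 6 were lower at number 2 and 4 of 6 higher at number 3. The exceptions were Fap, at -0.18, and Cilp, at -0.81. For Cilp both KO arrays were below both WT arrays, as for 8.83% of the named genes tested. By the mean of each genotype 4 of the 6 myofibroblast markers were lower in KO, with a median of -0.71 over the 6. The means of the other 2, the contractile genes Acta2 and Tagln, were higher in KO, by 0.33 and 0.10, although both were lower at number 2. The part of these cell types in the values of the 10 genes was not tested.

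Markers of fibroblasts moved differently from the 10 genes at number 3. Their 8 genes had mean levels of 3.88 and 4.23 in WT and 3.24 and 3.75 in KO, each in the order of the array numbers, so that the range was 3.88 to 4.23 in WT and 3.24 to 3.75 in KO. All 8 had a lower mean in KO, 0 passed, and for 4 of them, Pdgfra, Dcn, Lum and Dpt, both KO arrays were below both WT arrays. The same separation was found for 8.83% of the named genes tested. At number 3 the fibroblast markers were lower on KO for 8 of 8 with a median of -0.47, whereas 7 of the 10 collagen maturation genes were higher there with a median of 0.24. Every marker of these cell types was well above background on all 4 arrays.

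**Figure D4:**
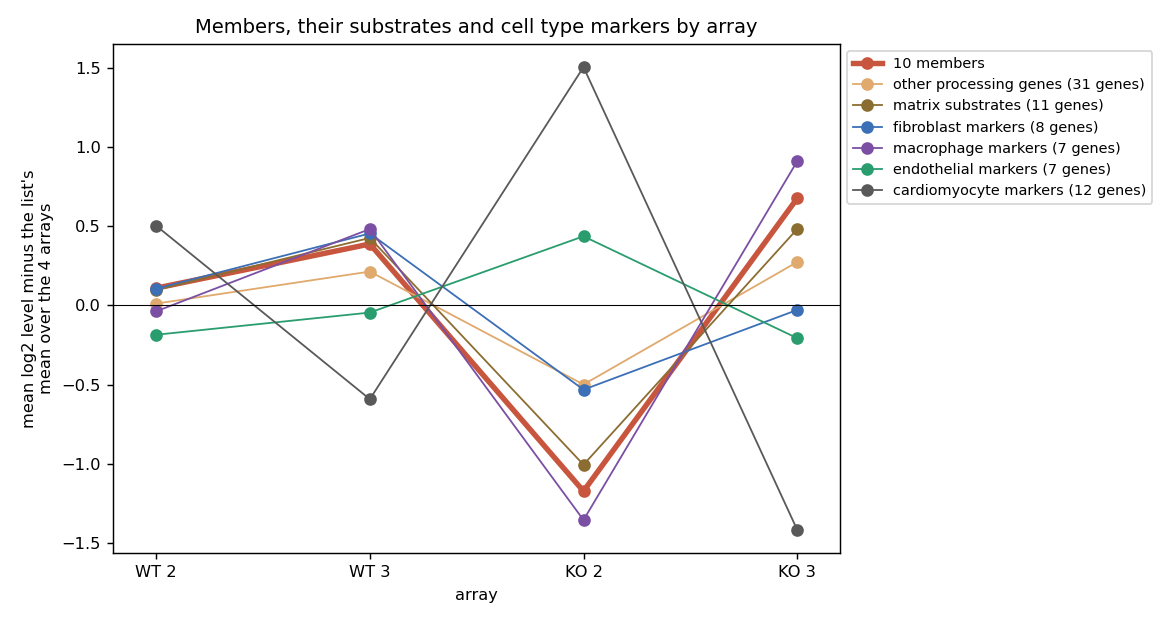
Mean log2 level of each gene list on each array (x axis) minus the mean of that list over the 4 arrays (y axis, log2), with lines joining the points of a list. The 10 genes (thick red line) lie between -1.17 on KO 2 and 0.68 on KO 3, next to the substrate list and the macrophage markers, while the cardiomyocyte markers have their highest point on KO 2.

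As a description over 4 arrays, the genes outside all lists with the profile nearest to the mean of the 10 genes, after centring each gene, were Il4ra, Csrp2, Neurl3, C130026I21Rik and Foxc2, at Euclidean distances between 0.04 and 0.06. The mean profile itself was 0.11 and 0.39 on the WT arrays, in the order 2 and 3, and -1.17 and 0.68 on the KO arrays. Of the 10 genes, Plod2 and Loxl1 lay nearest to it, at 0.20 and 0.25, and Lox lay at 1.51. Of the named genes tested outside all lists, 73 lay nearer to it than Plod2, 136 nearer than Loxl1 and 7401 nearer than Lox. The distance of P4ha3 was 1.68 as measured and 1.38 with its KO 2 signal at the lowest level well above background, and the mean profile holds that signal too.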

How the data were processed

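RNA from 4 left ventricle samples was hybridised to one-colour Agilent arrays of the whole-genome mouse design, all on 1 slide and scanned on 1 day. The authors deposited the scanner intensity of each spot from Agilent Feature Extraction, version 10.7.3.1 per the file headers, with processed signals that the software background-subtracted and detrended. The authors also deposited a log2 table, made with GeneSpring per the methods, whose values were within 0.01 of quantile-normalized log2 processed signals for 99.90% to 99.96% of probes, with a median of 6.784 in each column. Its normalization is not given in the sources used here.

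Spots with an outlier flag, 92 to 116 per array, were left out, no spot was saturated, and spots of a probe were averaged. From 68.15% to 72.04% of the probes on an array had a signal well above background. The log2 signal was shifted by the 75th percentile, a processed signal of 876.3 and 976.1 for WT 2 and WT 3 and of 607.6 and 885.2 for KO 2 and KO 3. Of 41174 probes, 28304 were tested, 12864 were too dim and 6 lacked a value. KO was compared with WT, and number 2 with number 3 with genotype as a term, by limma 3.58.1 in R 4.3.3 with Benjamini-Hochberg adjustment over all tested probes. A call needed an adjusted p under 0.05 and a fold over 2. The value of a gene is that of its tested probe with the highest mean. Figures were drawn with matplotlib. The steps were tested on simulated data.

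The 10 genes, the lists and the tests were chosen with earlier results of these data known. The 10 genes, Kdm5b, Col1a1, Col1a2, Col3a1 and Eln were always named. Other processing genes and substrates were named where both KO arrays lay beyond both WT arrays or the difference at a number exceeded 1, up to 12 by size. Probe coordinates were taken from the files (mm9) and were not placed within exons or UTRs. Protein sequences were not used here. Alternatives were normexp with an offset of 50, quantile normalization, a median shift, other filters on dim probes, the authors' values, each array left out, the array number as a block, trend and robust eBayes, a mean over the probes of each gene and the methods' t-test.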

Additional observations from a re-analysis of the deposited data

Results flagged for a closer look

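For 7 of the 10 genes the difference between KO and WT had opposite signs at the array numbers, lower on KO at number 2 and higher at number 3. With 1 array per genotype and number, the difference between the numbers was not tested. The difference at number 2 minus that at number 3 was -3.66 for P4ha3, where the number 2 value is uncertain, -3.05 for Lox, -2.31 for Loxl3 and -1.73 for Loxl2. It was -1.55 for Plod2, -1.07 for Serpinh1 and -0.49 for P4ha1, which was lower at both numbers under normexp. Opposite signs in either order were found for 53.4% of all tested probes.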

How the results depend on the processing

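No probe was called between KO and WT under any alternative that could be run with Benjamini-Hochberg adjustment, and at an unadjusted p the methods' t-test gave 88 probes, with 0 of the 10 genes among them. Over the 4 settings that recompute the levels of all genes (normexp, quantile normalization, median shift and the authors' values), 38 of 40 differences of the 10 genes kept their direction. The exceptions were those of Loxl2, at -0.016 under quantile normalization and -0.017 in the authors' values. The median over the 10 genes lay between -0.45 and -0.28 in the settings that kept all 10 and all arrays, at number 2 between -1.16 and -0.77, and the median difference between the numbers between -1.54 and -1.37. The largest move of 1 gene was that of P4ha3, from -1.01 to -0.034 under normexp. Normexp moved the median of all tested probes from 0.02 to 0.13. With 1 array left out, the median ran from -1.06 without KO 3 to 0.41 without KO 2, and the number of genes lower in KO from 1 without KO 2 to 10 without KO 3. The difference then ran between -3.02 and 0.71 for Lox, -1.58 and 0.15 for Loxl1, -0.60 and 0.87 for Loxl2, -2.66 and 0.67 for Loxl3, -0.51 and 0.090 for P4ha1, -0.41 and -0.11 for P4ha2, -3.07 and 1.04 for P4ha3, -0.37 and 0.18 for Plod1, -1.29 and 0.36 for Plod2, and -0.83 and 0.45 for Serpinh1, assuming that a lone array varies like the other genotype. The cause was not tested. With the array number as a replicate block, 0 probes were called and the lowest adjusted p was 0.9949, and without genotype in the comparison of the numbers 0 of the 10 genes were called. The step from number 2 to number 3 correlated between WT and KO with r = 0.57 over all tested probes, but with 2 pairs and no label that ties them the numbers were not taken to pair the samples. All arrays shared 1 slide and 1 scan day, so neither could be fitted as a block, and leaving out an array left no residual degree of freedom for the comparison of the numbers, so it was not run.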

Other observations

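The hypoxia response, whose transcription factor is known to induce several collagen hydroxylases, was covered by a list of 12 genes. All 12 were tested and 0 passed. By the mean 9 of the 12 were higher in KO, as were 7723 of the 14044 named genes tested, and the median of the list was 0.22. At number 2, 10 of the 12 and 7506 of the named genes were higher on KO, with a median of 0.59 for the list. At number 3, 8 of the 12 and 6457 of the named genes were lower, with a median of -0.06 for the list. The list was meant to be given as counts and a median, and 2 of its genes are named outside that rule. Vegfa, a growth factor for blood vessels, had levels of 3.34 (WT 2), 2.32 (WT 3), 4.27 (KO 2) and 1.92 (KO 3), and the glycolytic enzyme gene Hk2 had 2.88, 1.78, 3.75 and 1.71, both highest on KO 2, where the 10 genes were lowest. Not all of the list went this way, as 2 of the 12 were lower on KO at number 2. A part of the hypoxia response in the values of the 10 genes was not tested.

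All 7 endothelial markers had a higher mean in KO, as had 7723 of the 14044 named genes tested. Their median difference was 0.22, and 0 passed. At number 2 all 7 were higher on KO with a median of 0.55, and at number 3, 6 were lower with a median of -0.14. For 1 of them both KO arrays were above both WT arrays, as for 13.2% of the named genes tested. Their mean level was 2.06 and 2.20 in WT and 2.68 and 2.04 in KO, each in the order of the array numbers. The 4 smooth muscle markers had mean levels of 0.64, 1.57, 0.74 and 1.72 on the same arrays. For 3 of them both number 2 arrays were below both number 3 arrays, as for 4450 of the 14044 named genes tested.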
